A study of Homo sapiens with 6 samples.

Results

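The RNA binding motif (RBM) genes are a set of human genes named for the RNA recognition motif, a small protein fold that binds single-stranded RNA. Members were taken as the protein-coding genes in the array's probe annotation whose symbol starts with RBM. The annotation held 36 such genes among 14884 named genes, of which 11916 were protein-coding. RBM3 was not among the 36, and 37519 of 53617 probe sets carried no gene symbol, so the set may miss RBM genes. Each gene was read from its brightest probe set over the arrays, and RBM12B was the 1 member with several probe sets.

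RBM proteins share a name and an RNA-binding fold rather than a single pathway. Some sit inside the spliceosome, the machine that removes introns from pre-mRNA, and others bind chosen exons and change whether they are kept. Further members help to place the m6A methyl mark on RNA, hand nuclear transcripts to the exosome for decay, or process ribosomal RNA in the nucleolus.

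The RNA came from SH-SY5Y, an established human neuroblastoma line with features of noradrenergic sympathetic neurons. Cells were given methanol, the solvent, as mock treatment, securinine (a plant alkaloid) at 30 µM, or 16F16 at 4 µM, each for 24 h. The series' title and design text describe both compounds as inhibitors of protein disulfide isomerase, which builds and reshuffles disulfide bonds in the endoplasmic reticulum. Each group had 2 Affymetrix Human Gene 2.0 ST arrays, and every group shared the line and the time, while the doses of the compounds differed. No genetic change was made in any group. Arrays of a group are labelled as biological replicates with no word on how cultures were kept apart, so the p-values measure only the spread between these samples, which may be technical.

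The deposited values were log2 expression, in which a difference of 1 is a doubling. Array medians lay between 4.16 and 4.23, and the median of the 36 members lay between 7.60 and 7.88. Of the members, 27 to 29 per array lay above the upper quartile of all probe sets and 1 or 2 lay below the lower quartile. The dimmest were RBM11, below the lower quartile on 6 arrays, and RBM46, on 3. Of 16 noradrenergic markers, 13 were measured, and 12 of these (DBH, HAND2, GATA3 and others) lay above the upper quartile on all 6 arrays. TH, which makes the dopamine precursor, did not. The mean of these 13 markers was 9.70 to 9.71 on the mock arrays, 8.94 to 9.04 with securinine and 9.23 to 9.28 with 16F16. Against mock, limma called 7 of the 13 lower with securinine (53.8%, against 10.6% of all genes) and 0 higher. With 16F16 it called 4 lower (30.8%, against 0.779%) and 0 higher. CHGA (-2.22 ± 0.092) and DDC (-2.05 ± 0.12) had the largest securinine differences of the 13. The part of these markers' changes in the results below was not tested. The 6 measured epithelial, blood and endothelial markers averaged 4.68 to 4.74 (mock), 4.65 to 4.68 (securinine) and 4.59 to 4.81 (16F16), and the 6 fibroblast markers 5.31 to 5.33, 5.25 to 5.26 and 5.35 to 5.36. Of these 12 genes, KRT18, FN1 and VIM lay above the upper quartile on all 6 arrays, LUM on 3 and the others on none. CD14 alone of the 12 passed the test against mock. It differed by 0.57 ± 0.14 with securinine (limma, adjusted p = 0.038). In bulk RNA, fewer cells with a transcript and less of it per cell cannot be told apart.

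The start regions of 5 members are printed because these were the called members with the lowest p for which RefSeq gave one, joined by RBM15B, the paralog of RBM15. Each line holds the 250 bases before the transcription start, 5′ to 3′ on the strand of the gene, from RefSeq on GRCh38.p14. Capitals mark matches, read on both strands, to the E-box CACGTG, the cyclic AMP response element TGACGTCA or the GC box GGGCGG, which reads CCGCCC on the other strand. The regions are chr1:110339127-110339376 (plus strand) for RBM15, chr3:51391035-51391284 (plus) for RBM15B, chr12:113966326-113966575 (minus) for RBM19, chr11:66677888-66678137 (minus) for RBM4B and chr7:155644411-155644660 (plus) for RBM33.
RBM15: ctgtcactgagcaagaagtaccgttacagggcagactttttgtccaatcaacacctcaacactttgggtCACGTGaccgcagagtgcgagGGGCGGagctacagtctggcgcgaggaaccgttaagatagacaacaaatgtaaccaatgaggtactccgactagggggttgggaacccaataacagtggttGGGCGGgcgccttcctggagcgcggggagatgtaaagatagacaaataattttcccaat
RBM15B: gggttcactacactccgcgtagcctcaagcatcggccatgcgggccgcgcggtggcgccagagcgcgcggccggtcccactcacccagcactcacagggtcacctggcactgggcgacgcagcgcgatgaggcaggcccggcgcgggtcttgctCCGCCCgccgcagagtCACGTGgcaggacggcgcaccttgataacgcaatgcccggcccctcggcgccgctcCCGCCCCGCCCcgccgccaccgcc
RBM19: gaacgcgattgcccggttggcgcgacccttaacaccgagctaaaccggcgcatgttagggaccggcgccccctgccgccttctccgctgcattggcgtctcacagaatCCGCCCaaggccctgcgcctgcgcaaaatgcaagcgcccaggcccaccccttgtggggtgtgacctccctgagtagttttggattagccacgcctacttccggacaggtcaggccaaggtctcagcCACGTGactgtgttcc
RBM4B: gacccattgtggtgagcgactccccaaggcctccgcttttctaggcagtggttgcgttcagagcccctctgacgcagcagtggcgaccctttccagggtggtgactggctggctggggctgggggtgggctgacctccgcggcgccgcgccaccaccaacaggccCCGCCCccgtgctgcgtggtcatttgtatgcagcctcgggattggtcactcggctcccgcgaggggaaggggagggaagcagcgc
RBM33: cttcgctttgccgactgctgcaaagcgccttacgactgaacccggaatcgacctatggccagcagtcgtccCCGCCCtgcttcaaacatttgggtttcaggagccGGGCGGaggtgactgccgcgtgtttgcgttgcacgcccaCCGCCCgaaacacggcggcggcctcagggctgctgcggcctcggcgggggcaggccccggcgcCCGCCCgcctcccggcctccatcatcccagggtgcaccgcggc

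In these lines an E-box begins 181 bases before the start in RBM15, 80 in RBM15B and 16 in RBM19, and no E-box lies in those of RBM4B and RBM33. GC boxes are present in all 5, with 4 in RBM33 and 1 each in RBM19 and RBM4B, and no printed motif overlaps one of another kind. RefSeq gave 37 windows of 300 bases (250 before and 50 after the start) for 32 of the 36 members. The E-box was found in 3 of the 37 (8.11%), those of RBM15, RBM15B and RBM19, against 8.34% of 22180 windows of protein-coding genes. The response element TGACGTCA was found in 3 windows (8.11%, against 2.26%), those of RBM12, RBM18 and RBM42, and the GC box in 24 (64.9%, against 56.3%). Median GC content was 60.7% in the members' windows and 62.3% in all. These are matches of letters, and binding was not measured.

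The first comparison was securinine against mock. The RBM genes lay mostly above mock: 10 of 36 members rose (27.8%), 1 fell (2.78%) and 25 did not pass the test, limma at an adjusted p under 0.05 over all 14884 genes. Of all genes tested, 8.40% rose and 10.6% fell in the same comparison. The risers were RBM33, RBM4B, RBM19, RBM15, RBM39, RBM18, RBM15B, RBM14, RBM41 and RBM22, and the gene that fell was RBM43. The changes were small: differences ran from -0.43 to 0.57 on the log2 scale, and the largest was a 1.48-fold rise. The median difference was 0.175 over the members and -0.035 over all genes tested, and 30 of 36 members (83.3%) lay above 0, against 44.6% of all genes.

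Both securinine arrays lay above both mock arrays for 25 members, where 27.0% of all genes did so. They lay below for 5 members, where 33.9% of all genes did so. The calls rested on all 4 arrays of the 2 groups. None of the rises was called without mock replicate 1, mock replicate 2, securinine replicate 1 or securinine replicate 2, and fewer genes overall were then called higher. With only the arrays of the 2 groups fitted, 6 members were called higher, against 7.16% of all genes. When all 53617 probe sets were fitted and adjusted together, 0 members were called higher, against 2.66% of all probe sets. The members' median stayed between 0.145 and 0.234 under all 14 other settings tried. Of 36 members, 27 to 30 lay above 0 in 13 of these settings, and with the filter on dim probe sets, which kept 30 members, 25 did. Settings that changed only the spread or the tests could not move a difference of group means. Those were the variance prior, all probe sets, the 2 groups alone, a term for replicate number and either 16F16 array left out. Their median (0.175) and their 30 members above 0 were fixed in advance.

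**Figure D1:**
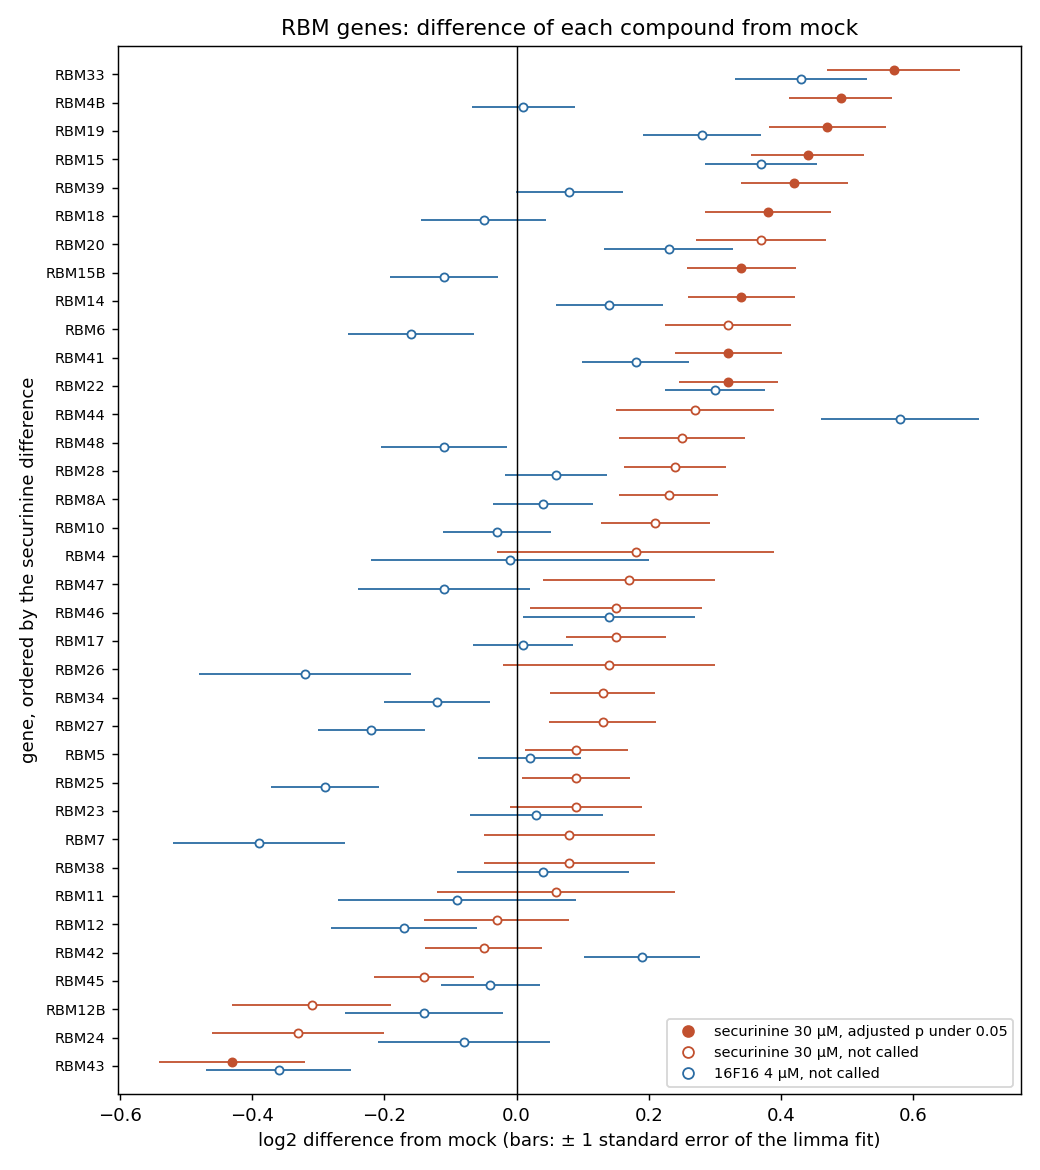
Log2 difference of each of the 36 RBM genes from mock (x axis) with securinine at 30 µM (orange) and 16F16 at 4 µM (blue), with genes on the y axis ordered by the securinine difference, bars of ± 1 standard error (SE) of the limma fit, and filled points for an adjusted p under 0.05. Most orange points lie right of 0, from -0.43 (RBM43) to 0.57 (RBM33), while the blue points fall on both sides and none is filled.

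**Figure D2:**
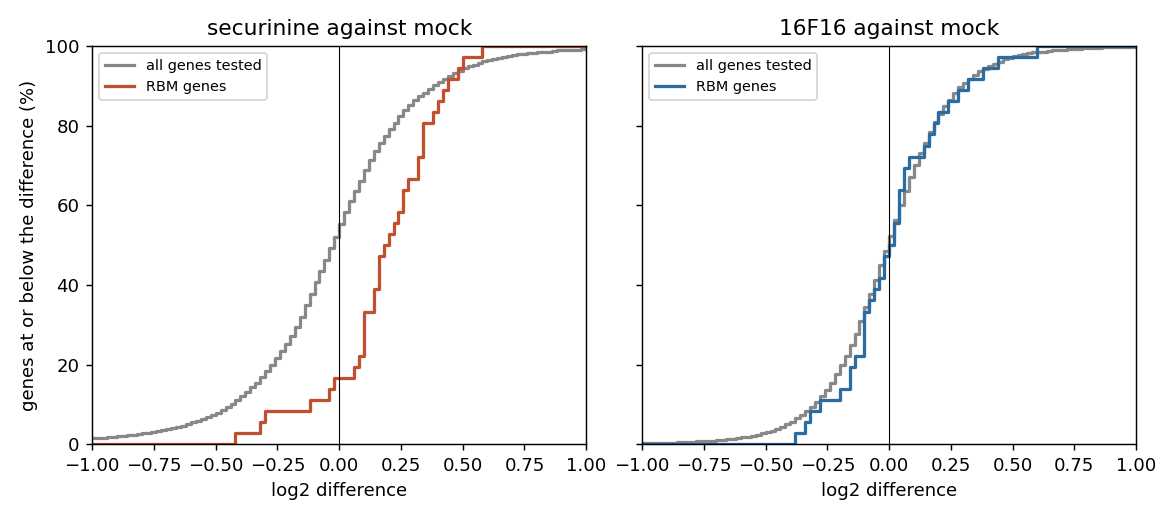
Cumulative share of genes (y axis, percent) at or below a log2 difference from mock (x axis, shown from -1 to 1) for the RBM genes (coloured) and all 14884 genes tested (grey), with securinine in the left panel and 16F16 in the right. With securinine the members' curve lies right of the grey one through most of its range (medians 0.175 and -0.035), and with 16F16 the curves lie close together (medians -0.002 and -0.012).

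Both adaptors of the m6A writer rose with securinine. RBM15 and RBM15B are paralogs that bring the methyltransferase complex to its RNA targets. RBM15 read 7.42 and 7.45 on the mock arrays, 7.81 and 7.94 with securinine, and 7.83 and 7.77 with 16F16. Both treated groups lay above mock and overlapped each other. Its rise with securinine was 0.44 ± 0.085 (SE, n = 2 arrays per group), 1.36-fold, at a limma adjusted p of 0.022. RBM15B read 7.97 and 7.95 on mock, 8.23 and 8.35 with securinine, and 7.84 and 7.85 with 16F16. Here the securinine arrays stood above mock and the 16F16 arrays just below it. RBM15B rose by 0.34 ± 0.082 with securinine, 1.26-fold (adjusted p = 0.042). In RefSeq, RBM15B overlaps DCAF1, a gene for a ubiquitin ligase subunit, and a shared signal was not tested.

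Of 8 members that belong to the spliceosome or associate with it, 3 rose with securinine and 7 lay above 0, with a median of 0.202. RBM39 is a splicing factor and coactivator related to U2AF65, and is the protein degraded by aryl sulfonamide drugs. It read 7.80 and 7.86 on mock, 8.29 and 8.20 with securinine, and 7.88 and 7.93 with 16F16. The securinine arrays were the highest, and the 16F16 arrays lay just above mock. RBM39 rose by 0.42 ± 0.081 with securinine, 1.33-fold (limma, adjusted p = 0.022).

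RBM22, a core protein of the active spliceosome that contacts U6 RNA, read 8.79 and 8.82 on mock, 9.10 and 9.15 with securinine, and 9.12 and 9.10 with 16F16. The treated groups overlapped each other, and both lay above mock. Its rise with securinine was 0.32 ± 0.075 (limma, adjusted p = 0.038). RBM41, linked to the minor spliceosome, which removes a rare class of introns, read 7.50 and 7.47 on mock, 7.81 on both securinine arrays, and 7.72 and 7.61 with 16F16. The groups did not overlap, with 16F16 between mock and securinine. RBM41 rose by 0.32 ± 0.081 with securinine (adjusted p = 0.044). The other 5 did not pass: RBM48, which acts with the minor spliceosome, differed by 0.25 ± 0.095, RBM17 (SPF45), a 3′ splice site factor, by 0.15 ± 0.076, and RBM23, a paralog of RBM39, by 0.09 ± 0.10. RBM25, a U1-associated splicing factor, differed by 0.09 ± 0.082, and RBM42, a tri-snRNP protein, by -0.05 ± 0.088.

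Among 9 members that bind chosen sequences in pre-mRNA or mRNA, RBM4B rose. RBM4B and its paralog RBM4 regulate alternative splicing and translation, and their genes overlap in RefSeq. RBM4B read 6.90 and 6.98 on mock, 7.43 on both securinine arrays, and 6.97 and 6.93 with 16F16. The securinine arrays stood apart, while mock and 16F16 overlapped. It rose by 0.49 ± 0.078 with securinine, 1.40-fold, the lowest adjusted p of any member (limma, 0.013). RBM4 read 2.95 and 3.23 on mock, 3.56 and 2.99 with securinine, and 3.15 and 3.01 with 16F16, so its 3 groups overlapped. Its probe set lay between the quartiles of all probe sets on every array, and its difference of 0.18 ± 0.21 did not pass. How far probes for the paralogs cross-hybridise was not tested.

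RBM20, the splicing regulator of titin in the heart, lay just outside the threshold. It read 6.08 and 5.95 on mock, 6.30 and 6.47 with securinine, and 6.24 and 6.25 with 16F16, a securinine difference of 0.37 ± 0.098 (limma, adjusted p = 0.051). Both treated groups lay above mock. RBM24, a regulator of muscle splicing, lay on the other side of mock at -0.33 ± 0.13 and did not pass (adjusted p = 0.14). The remaining 5 did not pass: RBM47, a cofactor of cytidine deamination, differed by 0.17 ± 0.13, RBM46, a germ cell protein, by 0.15 ± 0.13, RBM38, a p53-induced mRNA stability factor, by 0.08 ± 0.13, RBM11, a tissue-restricted splicing factor, by 0.06 ± 0.18, and RBM45, a neural RNA-binding protein, by -0.14 ± 0.075.

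RBM5, RBM6 and RBM10 form a family of splicing regulators, the first of which affects splicing of death-receptor transcripts. RBM6 read 7.55 and 7.64 on mock, 7.92 and 7.91 with securinine, and 7.34 and 7.52 with 16F16. Its groups did not overlap: securinine was highest and 16F16 lowest. The securinine difference of 0.32 ± 0.095 did not pass (limma, adjusted p = 0.072), nor did that of RBM10 (0.21 ± 0.082) or RBM5 (0.09 ± 0.078). RBM5 read 7.86 and 7.85 on mock, 7.96 and 7.93 with securinine, and 7.92 and 7.84 with 16F16.

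The antisense transcript of RBM5, which is no member because it is noncoding, showed a larger difference. RBM5-AS1 lies within RBM5 in RefSeq and read 4.32 and 4.29 on mock, 5.43 and 5.26 with securinine, and 4.11 and 3.85 with 16F16. All 3 groups stood apart, with securinine highest. It rose by 1.04 ± 0.12 with securinine, 2.06-fold (limma, adjusted p = 0.0059), and this call held in 14 of 14 other settings, between 0.96 and 1.13 with an adjusted p of 0.00059 to 0.047. Among those settings, leaving out either 16F16 array gave the same fit as only the arrays of the 2 groups. With 16F16, RBM5-AS1 differed from mock by -0.32 ± 0.12 (adjusted p = 0.21). The other 3 RBM antisense genes measured did not pass with securinine: RBM15-AS1 differed by 0.33 ± 0.22, RBM26-AS1 by -0.26 ± 0.14 and RBM12B-AS1 by 0.00 ± 0.10. RBM5-AS1 was named after its values were seen.

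Of 4 members that link nuclear RNA to decay or export, RBM33 rose, and all 4 lay above 0 with securinine. RBM33 binds the m6A demethylase ALKBH5 and takes part in mRNA export. It read 7.71 and 7.56 on mock, 8.14 and 8.27 with securinine, and 8.01 and 8.14 with 16F16. Both treated groups were above mock, with securinine the higher. RBM33 had the largest securinine difference of the members, 0.57 ± 0.10, 1.48-fold (limma, adjusted p = 0.017). RBM7, a subunit of the nuclear exosome targeting complex, differed by 0.08 ± 0.13, and RBM26 and RBM27, which link the exosome to polyadenylated RNA, by 0.14 ± 0.16 and 0.13 ± 0.081.

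The 3 nucleolar members, RBM19, RBM28 and RBM34, all lay above 0, and 1 passed. RBM19, needed for pre-rRNA processing, read 6.06 and 6.15 on mock, 6.59 and 6.56 with securinine, and 6.45 and 6.32 with 16F16. The groups did not overlap, with 16F16 in between. It rose by 0.47 ± 0.089 with securinine, 1.38-fold (limma, adjusted p = 0.020). RBM28, a factor of large ribosomal subunit assembly, differed by 0.24 ± 0.077 (adjusted p = 0.087) and RBM34 by 0.13 ± 0.080.

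RBM14, a transcriptional coactivator and a paraspeckle protein, read 7.78 and 7.71 on mock, 8.06 and 8.09 with securinine, and 7.93 and 7.84 with 16F16. The order was mock, 16F16, securinine, with no overlap. RBM14 rose by 0.34 ± 0.081 with securinine (limma, adjusted p = 0.041). It overlaps the RBM14-RBM4 readthrough gene in RefSeq. RBM8A (Y14), a core subunit of the exon junction complex that marks spliced mRNA, differed by 0.23 ± 0.075 and did not pass (adjusted p = 0.087).

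The 5 less studied members held 1 riser and the 1 member that fell. RBM18, a short protein with a single recognition motif, read 8.11 and 8.15 on mock, 8.49 and 8.53 with securinine, and 8.18 and 7.98 with 16F16. The securinine arrays stood above the others, while mock and 16F16 overlapped. RBM18 rose by 0.38 ± 0.095 with securinine (limma, adjusted p = 0.044). RBM43 read 4.60 and 4.53 on mock, 4.24 and 4.04 with securinine, and 4.30 and 4.12 with 16F16. Both treated groups lay below mock and overlapped each other. RBM43 fell by 0.43 on the log2 scale (SE 0.11) with securinine, close to the threshold (adjusted p = 0.049). RBM12B differed by -0.31 ± 0.12 at its brighter probe set and, in a fit of all probe sets, by -0.57 ± 0.18 at its dimmer one, and RBM12, whose locus overlaps CPNE1, by -0.03 ± 0.11. RBM44, a germ cell protein, differed by 0.27 ± 0.12.

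**Figure D3:**
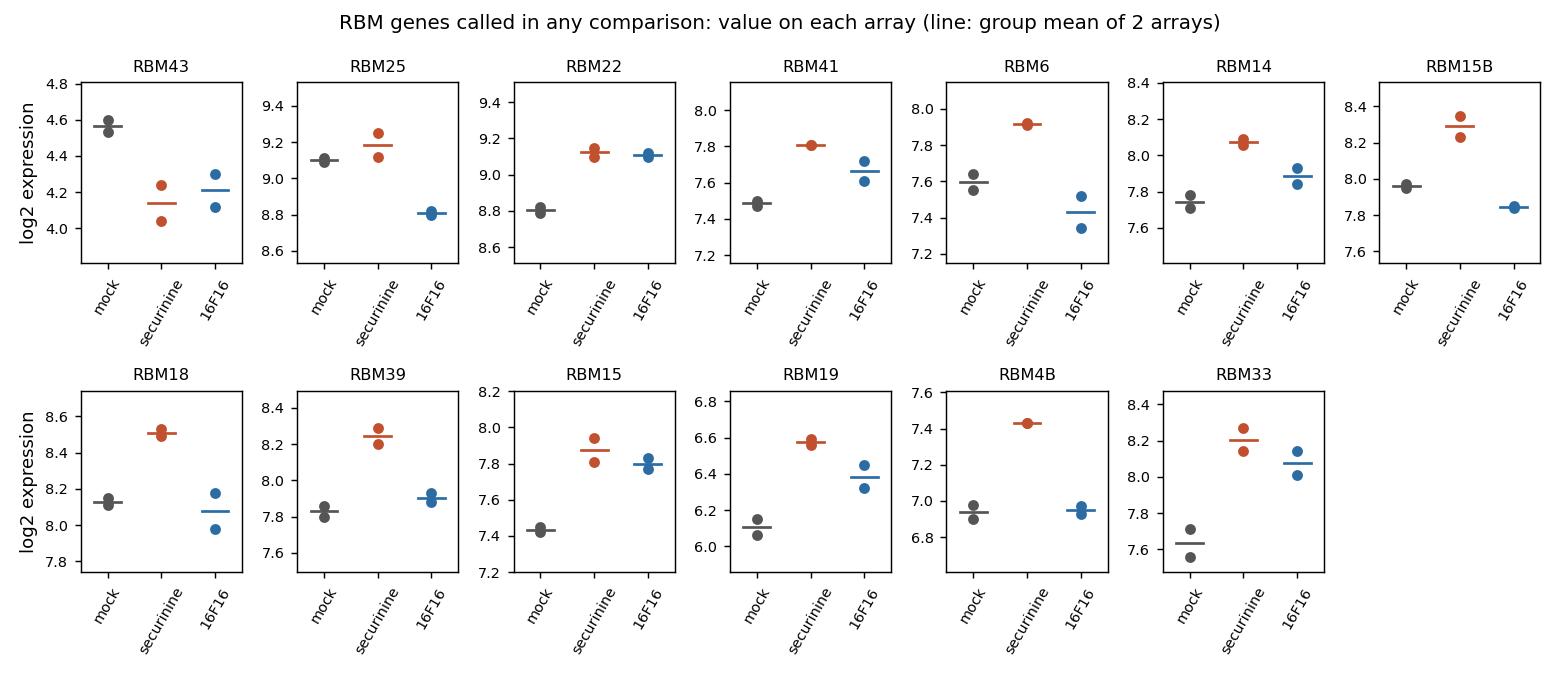
Log2 expression (y axis) on each of the 6 arrays for the 13 RBM genes called in any comparison, 1 panel per gene, by group (x axis), with points for arrays and lines for group means of 2 arrays. The 10 genes that rose with securinine show both securinine points above both mock points, while in RBM4B, RBM18, RBM39 and RBM15B the 16F16 points lie at or near mock.

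The second comparison was 16F16 against mock, which shares the mock arrays with the first. No member passed: limma called 0 members higher and 0 lower, against 0.719% and 0.779% of all genes. At an unadjusted p under 0.05 it gave 5 higher and 4 lower. In either direction that was 9 of 36 members, and 3139 of all 14884 genes tested. The members were evenly split, 18 above and 18 below 0, with a median of -0.002 against -0.012 over all genes. Both 16F16 arrays lay above both mock arrays for 12 members (24.1% of all genes did so) and below for 12 (27.7%).

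The member nearest the threshold was RBM44, which read 3.01 and 2.99 on mock, 3.29 and 3.26 with securinine, and 3.43 and 3.74 with 16F16. On every array this was a dim value, above the lower quartile but below the median of all probe sets. The groups did not overlap, and the 16F16 arrays were highest and most spread. Its 16F16 difference was 0.58 ± 0.12 (limma, adjusted p = 0.073). RBM33 (0.43 ± 0.10, adjusted p = 0.095), RBM15 (0.37 ± 0.085, adjusted p = 0.094) and RBM22 (0.30 ± 0.075, adjusted p = 0.11) followed. These 3 are among the genes that rose with securinine. On the other side of mock, RBM7 differed by -0.39 ± 0.13 (adjusted p = 0.19), RBM43 by -0.36 ± 0.11 (0.16), RBM26 by -0.32 ± 0.16 (0.32) and RBM25 by -0.29 ± 0.082 (0.13). Of the 4 decay and export members, RBM7, RBM26 and RBM27 lay below mock on both 16F16 arrays and RBM33 above it. When the variance prior followed intensity, 3 members (8.33%) were called higher and 2 (5.56%) lower, and of all genes 5.73% were higher and 6.42% lower.

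The third comparison set 16F16 at 4 µM directly against securinine at 30 µM, so compound and dose cannot be told apart. Limma called 0 members higher with 16F16 (5.55% of all genes were), with 2 at an unadjusted p under 0.05, and 5 lower (13.9%, against 3.96% of all genes). The 5 were RBM6, RBM4B, RBM15B, RBM18 and RBM25. The members' median was -0.165 against 0.013 over all genes, and 6 members lay above 0. In either direction, 15 of 36 members and 4116 of all 14884 genes had an unadjusted limma p under 0.05. The lower calls did not hold without any single array, mock arrays included, and few or no genes overall were then called lower. The members' median ran from -0.201 to -0.152 in those fits.

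RBM6 was lower with 16F16 than with securinine by -0.48 ± 0.095, 1.39-fold (limma, adjusted p = 0.037). RBM4B differed likewise by -0.48 ± 0.078, also 1.39-fold (adjusted p = 0.026), and its 16F16 arrays overlapped mock. RBM15B differed by -0.45 ± 0.082 (adjusted p = 0.032) and RBM18 by -0.43 ± 0.095 (0.048). Of these 4 members, RBM4B, RBM15B and RBM18 rose with securinine against mock. That comparison uses the same securinine arrays, so the calls are not independent.

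RBM25 was the member of the 5 that sat nearest mock with securinine. It read 9.09 and 9.11 on mock, 9.25 and 9.12 with securinine, and 8.80 and 8.82 with 16F16. The 16F16 arrays lay below all others, and the securinine arrays lay just above mock. Its difference between the compounds was -0.38 ± 0.082 (limma, adjusted p = 0.047). RBM27 (-0.35 ± 0.081, adjusted p = 0.054), RBM39 (-0.34 ± 0.081, adjusted p = 0.059) and RBM48 (-0.36 ± 0.095, adjusted p = 0.071) lay just outside the threshold. RBM5-AS1 was lower with 16F16 than securinine by -1.37 ± 0.12 (adjusted p = 0.0096).

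For the other risers the difference between the compounds did not pass, which does not show that they act alike. The 95% interval of the 16F16 minus securinine difference, not adjusted for the number of genes, was negative throughout for RBM39 (-0.54 to -0.14). It ran from -0.39 to 0.01 for RBM14, from -0.41 to 0.03 for RBM19 and from -0.35 to 0.05 for RBM41. It ran from -0.28 to 0.14 for RBM15, from -0.39 to 0.11 for RBM33 and from -0.20 to 0.17 for RBM22. For RBM43, which fell with securinine, it ran from -0.20 to 0.34.

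**Figure D4:**
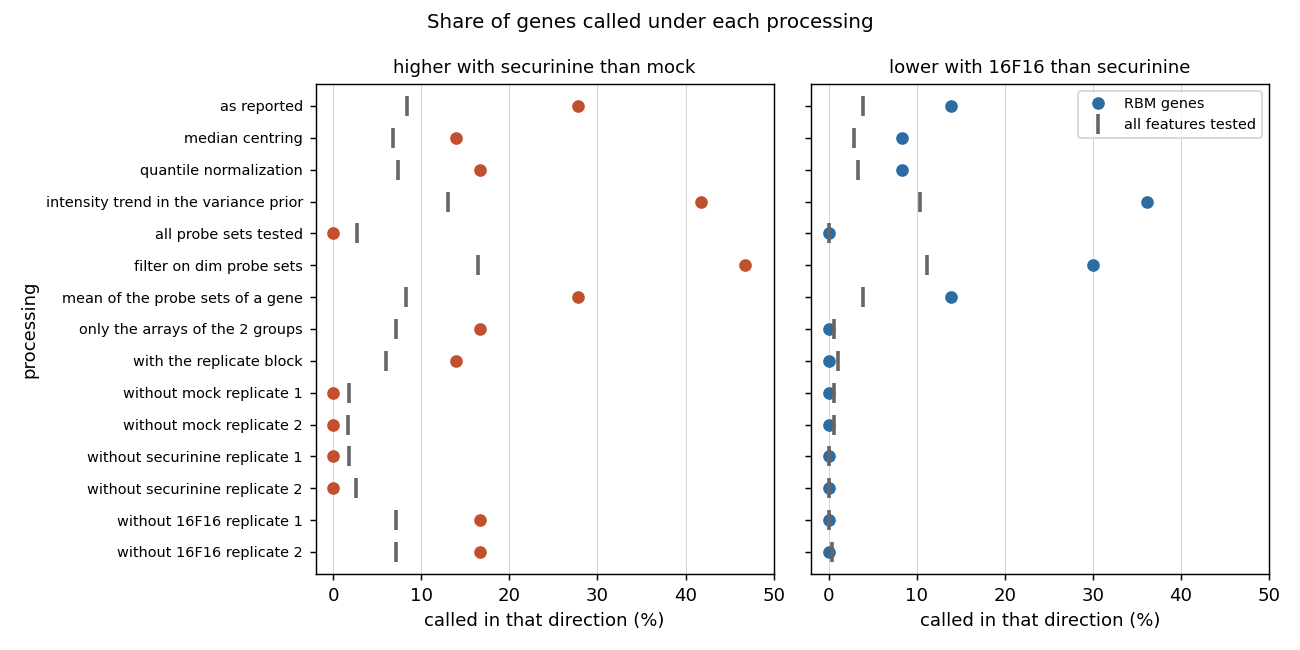
Percent of RBM genes called (points) and of all features tested (grey ticks) under the reported processing and each of 14 other settings (y axis), for genes higher with securinine than mock (left) and lower with 16F16 than securinine (right). The left points lie between 0 and 46.7% (reported 27.8%), and leaving out any mock or securinine array takes them to 0, where the grey ticks are also at their lowest.

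Partner genes of the RBM proteins were read from 7 lists. With 16F16, limma called 0 of their measured genes against mock in either direction, where 0.719% of all genes were higher and 0.779% lower. With securinine, the m6A machinery list had 1 of 8 measured genes lower (12.5%, against 10.6% of all genes) and 0 higher (against 8.40%). The gene was METTL3, the catalytic subunit, at -0.45 ± 0.094 (limma, adjusted p = 0.027), the direction opposite to that of RBM15 and RBM15B. METTL16, a separate m6A methyltransferase of U6 RNA, differed by 0.31 ± 0.095 (adjusted p = 0.076). WTAP, which joins the catalytic pair to RBM15, differed by 0.26 and VIRMA by -0.23, and neither passed.

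The nuclear exosome list had 1 of 15 higher (6.67%, against 8.40% of all genes) and 1 lower (6.67%, against 10.6%). EXOSC5, a subunit of the exosome ring, read 9.91 and 9.96 on mock, 8.65 and 8.77 with securinine, and 9.67 and 9.56 with 16F16. The securinine arrays lay far below the others. EXOSC5 fell by 1.23 on the log2 scale (SE 0.089, limma, adjusted p = 0.0026). SRRT (ARS2), which ties the cap-binding complex to decay, rose by 0.32 ± 0.074 (adjusted p = 0.035).

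The list of exon junction complex and retention and splicing complex partners had 1 of 6 lower (16.7%, against 10.6% of all genes). That gene was EIF4A3, the helicase that clamps the junction complex on RNA, at -0.47 ± 0.084 (limma, adjusted p = 0.018). In the minor spliceosome list, 1 of 9 was higher (11.1%, against 8.40% of all genes) and 1 lower (11.1%, against 10.6%). SNRNP35, a protein of the U11/U12 particle, fell by 0.50 (SE 0.082, adjusted p = 0.014), and TXNL4B rose by 0.38 ± 0.087 (adjusted p = 0.036). Of 8 paraspeckle genes measured, 1 was lower (12.5%, against 10.6% of all genes) and 0 higher (against 8.40%). The lower gene was NUDT21, a cleavage factor subunit, at -0.32 ± 0.082 (adjusted p = 0.047).

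Of 8 cold-inducible and stress granule genes, 2 rose (25%, against 8.40% of all genes) and 2 fell (25%, against 10.6%) with securinine. CIRBP, the cold-inducible relative of RBM3, read 10.19 and 10.17 on mock, 9.45 on both securinine arrays, and 9.95 and 9.78 with 16F16. The 3 groups were apart, with 16F16 in between. CIRBP fell by 0.73 (SE 0.088, limma, adjusted p = 0.0065), and G3BP1, a scaffold of stress granules, fell by 0.56 (SE 0.082, adjusted p = 0.0099). ATXN2 rose by 0.54 ± 0.082 (adjusted p = 0.011) and TIA1, a translational repressor in stress granules, by 0.41 ± 0.089 (adjusted p = 0.031).

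Among 14 measured neuronal or tissue-restricted splicing and RNA-binding proteins, 1 rose (7.14%, against 8.40% of all genes) and 3 fell (21.4%, against 10.6%). NOVA2, a neuronal KH-domain splicing regulator, fell by 0.68 on the log2 scale (SE 0.12, limma, adjusted p = 0.016), SRRM4, which drives neuronal microexon inclusion, by 0.57 (SE 0.12, adjusted p = 0.029), and MSI1 (Musashi-1), a translational regulator of neural progenitors, by 0.55 (SE 0.10, adjusted p = 0.020). PTBP3, of the polypyrimidine tract-binding family, rose by 0.45 ± 0.087 (adjusted p = 0.021). Over the 7 lists, the securinine counts against mock were 5 higher and 10 lower among 68 measured genes, where 8.40% and 10.6% of all genes passed.

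In the direct comparison, 2 of the 68 partner genes were higher with 16F16 than with securinine and 6 were lower, where 5.55% and 3.96% of all genes passed. The higher genes were EXOSC5 (0.90 ± 0.089) and CIRBP (0.42 ± 0.088). The lower genes were METTL16 (-0.61 ± 0.095), TIA1 (-0.60 ± 0.089), ATXN2 (-0.42 ± 0.082) and, from the paraspeckle list, TARDBP (-0.57 ± 0.096), SFPQ (-0.38 ± 0.082) and PSPC1 (-0.36 ± 0.079).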

How the data were processed

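The values are log2 expression as the authors deposited them, for 53617 probe sets on 6 arrays. RMA and limma were used per the submitters' processing notes, which carry no version. The array's genome build is not given in the sources used here, nor is its annotation release. RMA sets the arrays to a common scale and so can take out a shift common to most genes. A single gene symbol was paired with 16098 probe sets, several with 0 and none with 37519, and all 16098 matched RefSeq (GRCh38.p14) by Entrez identifier. No detection call was used, and the number of arrays limits the precision.

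From these values, each of 14884 genes was tested with limma 3.58.1 in R 4.3.3 (lmFit, eBayes, 3 groups, 3 residual and 2.68 prior degrees of freedom), two-sided, with Benjamini-Hochberg adjustment over all genes. The script was tested on simulated data. Errors are SE of the fit, with a median of 0.11.

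The members and lists were chosen with earlier results of these data known. Array values are given for members called in any comparison. Outside that rule, they are also given for RBM4, RBM5, RBM20, RBM44, RBM5-AS1, EXOSC5 and CIRBP, of which RBM20 and RBM44 lay near the threshold. Partner genes named are up to 4 per list with the lowest securinine p. RBM14 was moved to its own role, and 2 unmeasured genes were dropped from the lists, after values were seen. The 10 lists hold 141 genes, 93 of them measured. Alternatives changed the scaling, the variance prior, the features tested, the filter, the probe sets, the arrays and the replicate block. Same-numbered arrays did not deviate together (correlations of deviations -0.032, 0.038 and -0.050), so the numbers were not taken as pairs.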

Additional observations from a re-analysis of the deposited data

How the results depend on the processing

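With securinine against mock, 10 members were higher and 1 lower as reported. The higher count was 5 with median centring (all genes: 6.83%), 6 with quantile normalization (7.38%) and 6 with only the arrays of the 2 groups (7.16%). It was 0 with all probe sets fitted and adjusted together (2.66% of them). It was 15 with an intensity trend (all genes: 13.0%) and 14 of 30 with a filter on dim probe sets (16.4%). With a mock or securinine array left out, none of the higher calls held, and fewer genes overall were called higher. The lower count was 0 with median centring (all genes: 11.2%), over all probe sets (2% of them) and with only the arrays of the 2 groups (all genes: 9.38%). It was 2 with the mean of a gene's probe sets (all genes: 10.5%). The lower call did not hold with 1 array left out. The median of 0.175 ran from 0.175 to 0.234 with 1 array left out. The arrays share only a replicate number. With the replicate block, 5 members were higher with securinine (all genes: 5.97%) and 0 were lower with 16F16 than securinine (all genes: 1.08%). For 16F16 against mock, where the reported counts were 0, the trend gave 3 higher and 2 lower (5.73% and 6.42% of all genes) and the filter 3 higher (4.66%). For 16F16 against securinine, the 5 lower members (all genes: 3.96%) became 3 with median centring (all genes: 2.92%) and 3 with quantile normalization (3.29%). The lower count was 13 with the intensity trend (all genes: 10.4%) and 9 of 30 with the filter (11.2%). It was 0 over all probe sets (0% of them) and 0 with only the arrays of the 2 groups (all genes: 0.618%). With 1 array left out the lower calls did not hold, and few or no genes overall were called lower. The trend gave 1 member higher (2.78%, against 10.5% of all genes). Among the 13 members called in any comparison, these values changed sign: RBM18 with 16F16 ran from -0.15 to 0.05 and RBM4B with 16F16 from -0.03 to 0.05 with 1 array left out (0 after quantile normalization); between the compounds, RBM43 ran from -0.03 to 0.17 and RBM22 from -0.04 to 0.01 (0.02 centred, 0.08 after quantile normalization). Fitting all probe sets changed both the variance prior and the number of tests, and these were not separated. Leaving out an array leaves a lone sample assumed to vary like the other groups, and the cause of the moves was not tested. RBM15, RBM19, RBM33, RBM39 and RBM4B kept their securinine call in 9 of the 14 settings, RBM18 in 6, RBM41 and RBM43 in 4, and RBM14, RBM15B and RBM22 in 3. For securinine against mock, leaving out either 16F16 array gave the same fit as only the arrays of the 2 groups. Those settings repeat 1 result in these counts. All 11 kept their direction in 14 of 14, though settings that change only the spread or the tests could not alter it. A rescaling moved the median of all genes from -0.035 to at most -0.065.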
